A study of Mus musculus with 4 samples.

Results

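Open chromatin around 9 genes of the neuroectoderm was compared between WT and CTCF-K20R embryoid bodies (EBs) on day 4 of differentiation. The genes were Nes, Sox1, Pax6, Olig2, Irx3, Zic1, Six3, Lhx2 and Neurog2, taken from 21851 protein-coding genes annotated on mm10. All ATAC-seq peaks within 50 kb of a transcription start site (TSS) of these genes were collected, whatever their values. They formed 87 of the 80380 regions of the whole data set, a region being a set of peaks of different libraries that share at least 1 bp. Both genotypes were derived from the mouse embryonic stem cell (mESC) line E14Tg2A, which had been kept on a feeder layer of mouse embryo fibroblasts with serum, LIF and 2i. EBs were formed in hanging drops without LIF. In the K20R cells, lysine 20 of CTCF, the DNA-binding protein that organises chromatin loops, had been changed to arginine with CRISPR/Cas9, and WT cells carried no such change. How many edited mESC clones the EBs came from is not given in the sources used here, so an effect of K20R and of a clone cannot be told apart. There were 2 libraries of each genotype, described in the study as biological replicates.

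Neuroectoderm is the part of the early embryo that forms the brain and spinal cord, and EBs left to differentiate produce some of it beside mesoderm and endoderm. Sox1 and Pax6 encode transcription factors of early neural progenitors, and Nes encodes nestin, an intermediate filament protein of these cells. Six3 and Lhx2 act in the forebrain and the eye field, Zic1 in the dorsal neural tube, Irx3 and Olig2 in patterning of the neural tube, and the proneural factor Neurog2 starts neuronal differentiation. In ATAC-seq a transposase inserts adapters into open chromatin, so that a peak marks an accessible promoter or a possible enhancer. A peak shows accessibility and not transcription, and promoters of developmental genes are often accessible before the genes are expressed. In EBs, fewer cells of a type and a weaker peak in each cell cannot be told apart.

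The WT lists had 59783 and 66703 peaks, those of K20R 51823 and 55832. The median summit fold at regions found in all libraries in the WT libraries was 5.86 and 7.74, and that in the K20R libraries 5.73 and 7.59, with replicate 2 above replicate 1 in both genotypes. Relative depth was estimated as the background level of each list divided by its shortest peak length, relative to WT replicate 1. It lay between 0.976 and 1.15. Promoter peaks at 3 fibroblast genes of 7 (Col3a1, Lum and Postn) were found in no library, and 3 or 4 of the 7 had one in each library. All 4 pluripotency genes and all 4 early mesoderm genes of the marker lists had a promoter peak in each library. No list differed by more than 1 gene between libraries, and the share of neural cells in the EBs was not measured.

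A few sequences carry the results below. The first is the accessible part of intron 2 of Nes, an intron known for a neural progenitor enhancer. The others are the summits of the largest negative difference in rank, of a region found in WT alone, of neighbouring Pax6 intron regions that differed in opposite directions, and of the single region found in K20R alone. Each is the mm10 plus strand from 100 bp before to 100 bp after the strongest summit, and capitals mark a match to one of the motifs searched.
Nes intron 2, chr3:87974447-87974647: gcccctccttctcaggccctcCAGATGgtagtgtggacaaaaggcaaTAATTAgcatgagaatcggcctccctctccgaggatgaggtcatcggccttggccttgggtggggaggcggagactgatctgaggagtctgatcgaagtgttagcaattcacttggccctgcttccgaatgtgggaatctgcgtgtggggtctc
Crabp2 intron 1, upstream of Nes, chr3:87950230-87950430: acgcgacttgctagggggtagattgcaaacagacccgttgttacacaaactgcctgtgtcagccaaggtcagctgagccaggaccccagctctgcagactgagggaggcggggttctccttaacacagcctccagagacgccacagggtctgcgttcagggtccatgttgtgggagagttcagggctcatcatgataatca
Lhx2 intron 3, WT-restricted, chr2:38358708-38358908: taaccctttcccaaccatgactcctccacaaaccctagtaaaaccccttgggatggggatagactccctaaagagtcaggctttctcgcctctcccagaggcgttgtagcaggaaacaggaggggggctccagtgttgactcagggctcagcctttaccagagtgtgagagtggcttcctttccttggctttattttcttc
Pax6 intron 3, lower in K20R, chr2:105687690-105687890: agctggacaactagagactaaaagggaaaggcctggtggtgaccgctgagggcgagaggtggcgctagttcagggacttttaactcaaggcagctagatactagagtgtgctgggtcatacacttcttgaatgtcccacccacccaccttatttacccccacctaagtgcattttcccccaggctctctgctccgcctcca
Pax6 intron 3, higher in K20R, chr2:105690441-105690641: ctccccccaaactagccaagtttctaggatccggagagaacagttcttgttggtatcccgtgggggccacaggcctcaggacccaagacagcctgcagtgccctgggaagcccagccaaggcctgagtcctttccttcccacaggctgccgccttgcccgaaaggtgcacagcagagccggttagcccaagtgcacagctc
Irx3 upstream, K20R-restricted, chr8:91806581-91806781: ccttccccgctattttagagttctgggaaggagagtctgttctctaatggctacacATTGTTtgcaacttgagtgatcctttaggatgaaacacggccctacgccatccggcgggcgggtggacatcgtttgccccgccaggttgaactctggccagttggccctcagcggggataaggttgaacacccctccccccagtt
The Nes window held the E-box letters CAGATG and the homeodomain letters TAATTA, and the Irx3 window held a SOX match (AACAAT, here on the minus strand). The other windows held no exact match to any of the motifs. Partial or weaker matches, to CTCF or to the others, were not searched.

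A promoter peak was found at each of the 9 genes in each of the 4 libraries, that is a peak overlapping the 1000 bp on either side of a TSS. Of all protein-coding genes, 66.3% had one in all 4. The peaks were compared by percentile, the rank of a peak's −log10 p within its own list, in which 100 is the strongest peak. In WT the 9 promoters were ordered from Neurog2 (89.0 ± 1.95, mean ± SD, n = 2) through Lhx2 (86.1 ± 1.26), Olig2 (83.4 ± 4.50), Irx3 (81.3 ± 1.04), Pax6 (78.3 ± 1.24), Nes (73.2 ± 3.01), Zic1 (68.4 ± 3.15) and Six3 (61.0 ± 1.61) to Sox1 (52.7 ± 19.1). The WT values of Neurog2 did not overlap those of Lhx2, while those of Lhx2 and Olig2, of Olig2 and Irx3, and of Six3 and Sox1 did. Most of these promoters were weak for promoters. Ranked among the promoter peaks of the 14494 genes that had one in all libraries, 8 of the 9 lay below the median in WT and 6 of the 9 in K20R. In WT their median percentile was 77.4 and 79.2, and in K20R 68.6 and 71.8, beside 86.7, 87.5, 85.0 and 86.0 for all those promoters.

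A promoter was called lower or higher in K20R when both K20R percentiles lay below or above both WT percentiles. With 2 against 2 libraries the exact two-sided permutation test cannot give a p below 0.333, so no single promoter could pass 0.05. Among all 14494 promoters, 32.2% were lower and 15.8% higher by this rule. Among the 9, Pax6, Zic1 and Six3 were lower, Irx3 was higher, and the groups of the other 5 overlapped. When percentiles were taken among promoter peaks alone, which does not depend on the length of a list, 23.0% of all promoters were lower and 23.9% higher. The same 3 genes were then lower, and Irx3 and Lhx2 were higher. The median difference, K20R mean minus WT mean, was −6.07 for the 9 and −0.826 for all promoters in list percentiles, and −2.76 and 0.0655 among promoters. With 9 genes the counts stood close to the shares of all promoters.

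**Figure D1:**
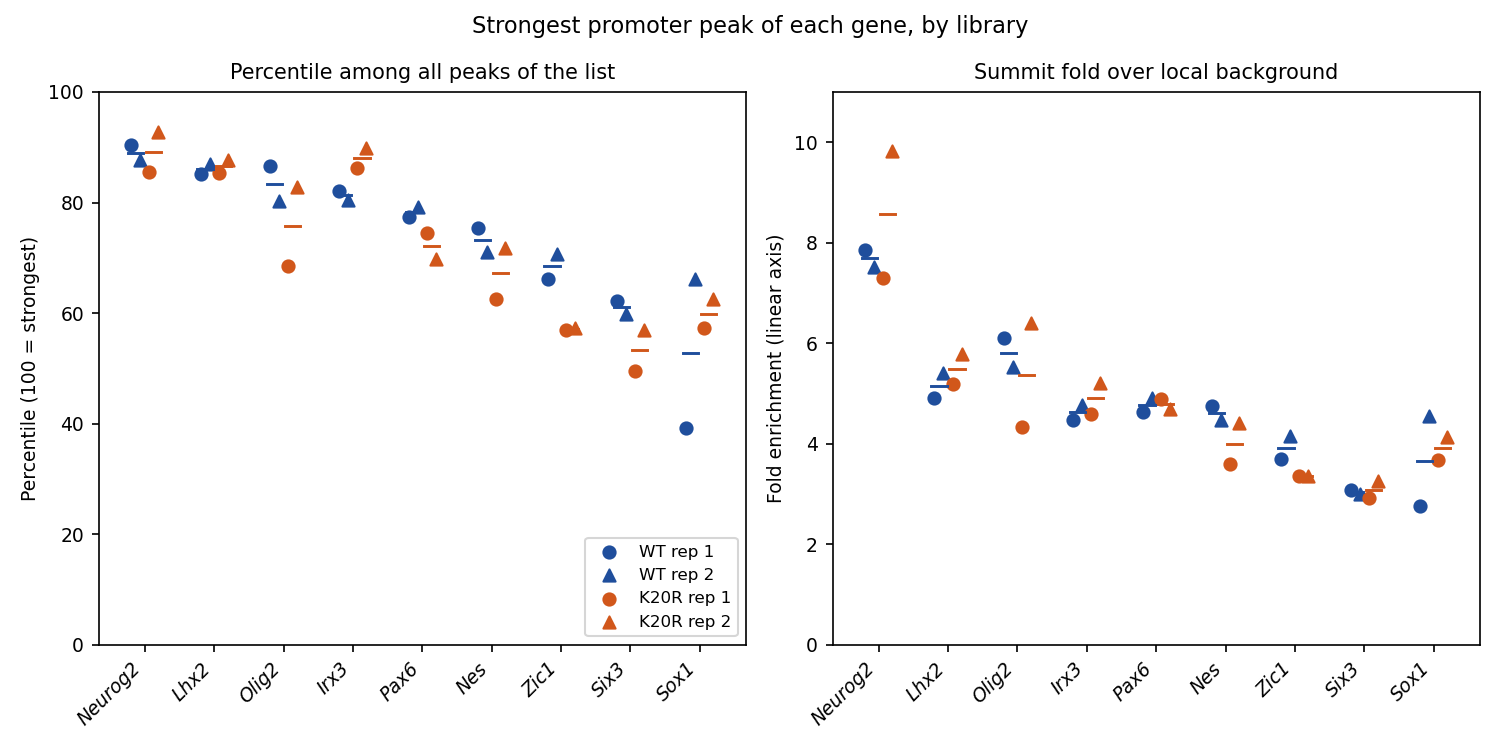
Strongest promoter peak of each of the 9 genes in each library, as percentile within the list (left) and as summit fold over the local background (right); points are libraries, bars the mean of the 2 libraries of a genotype. Zic1, Six3 and Pax6 lay lower in both K20R libraries on the percentile axis and Irx3 higher, while Neurog2 and Lhx2 lay between 85.2 and 92.7 in each library.

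Nes (ENSMUSG00000004891.16, chr3:87971093-87980451, plus strand) had WT promoter percentiles of 75.4 and 71.1 and K20R percentiles of 62.5 and 71.8. K20R replicate 1 alone was low, and the groups overlapped (difference −6.07, exact permutation p = 0.667). Sox1 (ENSMUSG00000096014.1, chr8:12395295-12400126, plus strand) had WT values of 39.2 and 66.2 and K20R values of 57.3 and 62.5. WT replicate 1 stood apart, and the difference was 7.15 with it and −6.37 without it. Olig2 (ENSMUSG00000039830.9, chr16:91225457-91228677, plus strand) had WT values of 86.6 and 80.2 and K20R values of 68.6 and 82.8, again with K20R replicate 1 as the low library and overlapping groups (difference −7.71, exact permutation p = 0.667). At none of these 3 promoters did the genotypes separate.

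The proneural gene Neurog2 (ENSMUSG00000027967.8, chr3:127633135-127635631, plus strand) had the strongest promoter peak of the set, with WT values of 90.4 and 87.6 and K20R values of 85.5 and 92.7. Its summit lay 1169 bp into the gene, in coding exon 2, and the difference was 0.12. Lhx2 (ENSMUSG00000000247.11, chr2:38339281-38369733, plus strand) had WT values of 85.2 and 87.0 and K20R values of 85.4 and 87.7, a difference of 0.43. The summit folds of Neurog2 were 7.86, 7.52, 7.29 and 9.83, those of Lhx2 4.90, 5.41, 5.19 and 5.78, in the order WT replicates 1 and 2, K20R replicates 1 and 2. Folds and pileups below follow this order.

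Zic1 (ENSMUSG00000032368.14, chr9:91358058-91365810, minus strand) had the largest promoter difference of the 9 in list percentiles. It went from WT values of 66.2 and 70.7 to K20R values of 57.0 and 57.3 (difference −11.3, exact permutation p = 0.333, the smallest possible). Folds were 3.69, 4.15, 3.35 and 3.36. In K20R replicate 1 the strongest promoter peak was one in coding exon 1, and in the other libraries it was the one whose summit lay 158 bp upstream of the TSS. That upstream region alone went from 66.2 and 70.7 to 47.3 and 57.3, and the exon 1 region from 47.4 and 54.9 to 57.0 and 41.6, which overlapped. The pileup scale is the log2 of the recovered summit pileup, centred on each library's median over autosomal regions found in all libraries. On it the Zic1 promoter overlapped between genotypes (difference −0.13), and the largest difference of the 9 was at Irx3 (0.61). Ranked among promoters, the Zic1 difference was −6.95, smaller in size than 23.0 at Irx3 and −10.5 at Olig2, whose groups overlapped.

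Six3 (ENSMUSG00000038805.10, chr17:85613608-85629302, plus strand) went from WT values of 62.2 and 59.9 to K20R values of 49.5 and 57.0 (difference −7.77). Its strongest promoter peak had its summit 1066 bp from the TSS, in intron 1, under the long non-coding transcript Six3os1 as well, and pileups of 73, 113, 58 and 107. Without K20R replicate 1 the difference was −4.05. A second, weak region 484 bp upstream of the same TSS went from 40.1 and 8.69 to 1.85 and 0.49, but the WT libraries were themselves 2 widely separated values (SD 22.2).

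Pax6 (ENSMUSG00000027168.21, chr2:105668900-105697364, plus strand) has several promoters, and they did not share a direction. The strongest promoter peak, with its summit 76 bp upstream of a TSS, went from WT values of 77.4 and 79.2 to K20R values of 74.5 and 69.7 (difference −6.20, and −3.78 without K20R replicate 2). Its folds of 4.63, 4.91, 4.89 and 4.70 overlapped. The peak at the outermost TSS of the gene was weaker and ranked higher in K20R, from 59.1 and 62.6 to 66.2 and 64.4 (difference 4.38). Both directions held on the pileup scale, so the direction given for the Pax6 promoter depended on which start site was used.

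Irx3 (ENSMUSG00000031734.13, chr8:91798525-91802067, minus strand) was the single promoter of the 9 that ranked higher in K20R, with WT values of 82.0 and 80.5 and K20R values of 86.3 and 89.9 (difference 6.80). Pileups were 106, 144, 146 and 259, and folds 4.47, 4.77, 4.59 and 5.20. Irx3 lies in a long stretch of chromosome 8 in which K20R peaks were raised as a whole, a stretch that was picked out for this and is given as a description. Of its 1040 common regions (a peak in all libraries), 59.2% ranked higher in K20R, with a median difference of 5.44 percentile points against −1.69 in the rest of the genome. The median difference in log2 pileup was 0.66 in the stretch and 0.07 elsewhere. Against that median the Irx3 promoter differed by 1.36 percentile points and −0.05 in log2 pileup, and 43.3% of the stretch's common regions had a larger percentile difference. The difference at the Irx3 promoter was thus close to that of its surroundings.

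The surroundings of the other genes were compared in the same way, over common regions between 50 kb and 1 Mb of each TSS. Median percentile differences there lay between −1.51 and 0.19 around Nes, Sox1, Pax6, Olig2, Six3, Lhx2 and Neurog2, over 24 to 104 regions, and were 4.34 around Irx3. Around Zic1 there were 3 such regions, with a median of −14.6, so that the Zic1 promoter difference of −11.3 cannot be set against its surroundings with any precision. The Six3 promoter differed from its surroundings by −7.13, Olig2 by −6.20, Pax6 by −4.82, Nes by −4.77, Sox1 by 6.96, Irx3 by 2.46, Lhx2 by 1.10 and Neurog2 by 1.26. The SD of the differences among the surrounding regions of these genes ran from 10.3 around Olig2 to 19.6 around Irx3, larger than any of these values.

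Of the 87 regions within 50 kb of the 9 genes, 66 (75.9%) were common, beside 47.9% of all regions. The WT libraries had peaks in 77 and 79 of them, the K20R libraries in 71 and 78. By the strongest summit, 20 regions were promoters of a member or a neighbour, 8 lay in exons, 18 in introns and 41 between genes. The strongest promoter peaks of Neurog2 and Six3, with summits 1169 and 1066 bp from the TSS, were thus counted in an exon and an intron. That of Neurog2 was also its strongest common region outside promoters. The regions outside promoters were 67, of which 71.6% were common, against 38.0% of all regions outside promoters. They were longer (median 1031 bp against 645 bp) and richer in G and C around the summit (60.2% against 51.7%) than those of the whole set. Of the promoter regions near the genes, 90.0% were common, as were 90.0% of all promoter regions.

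**Figure D2:**
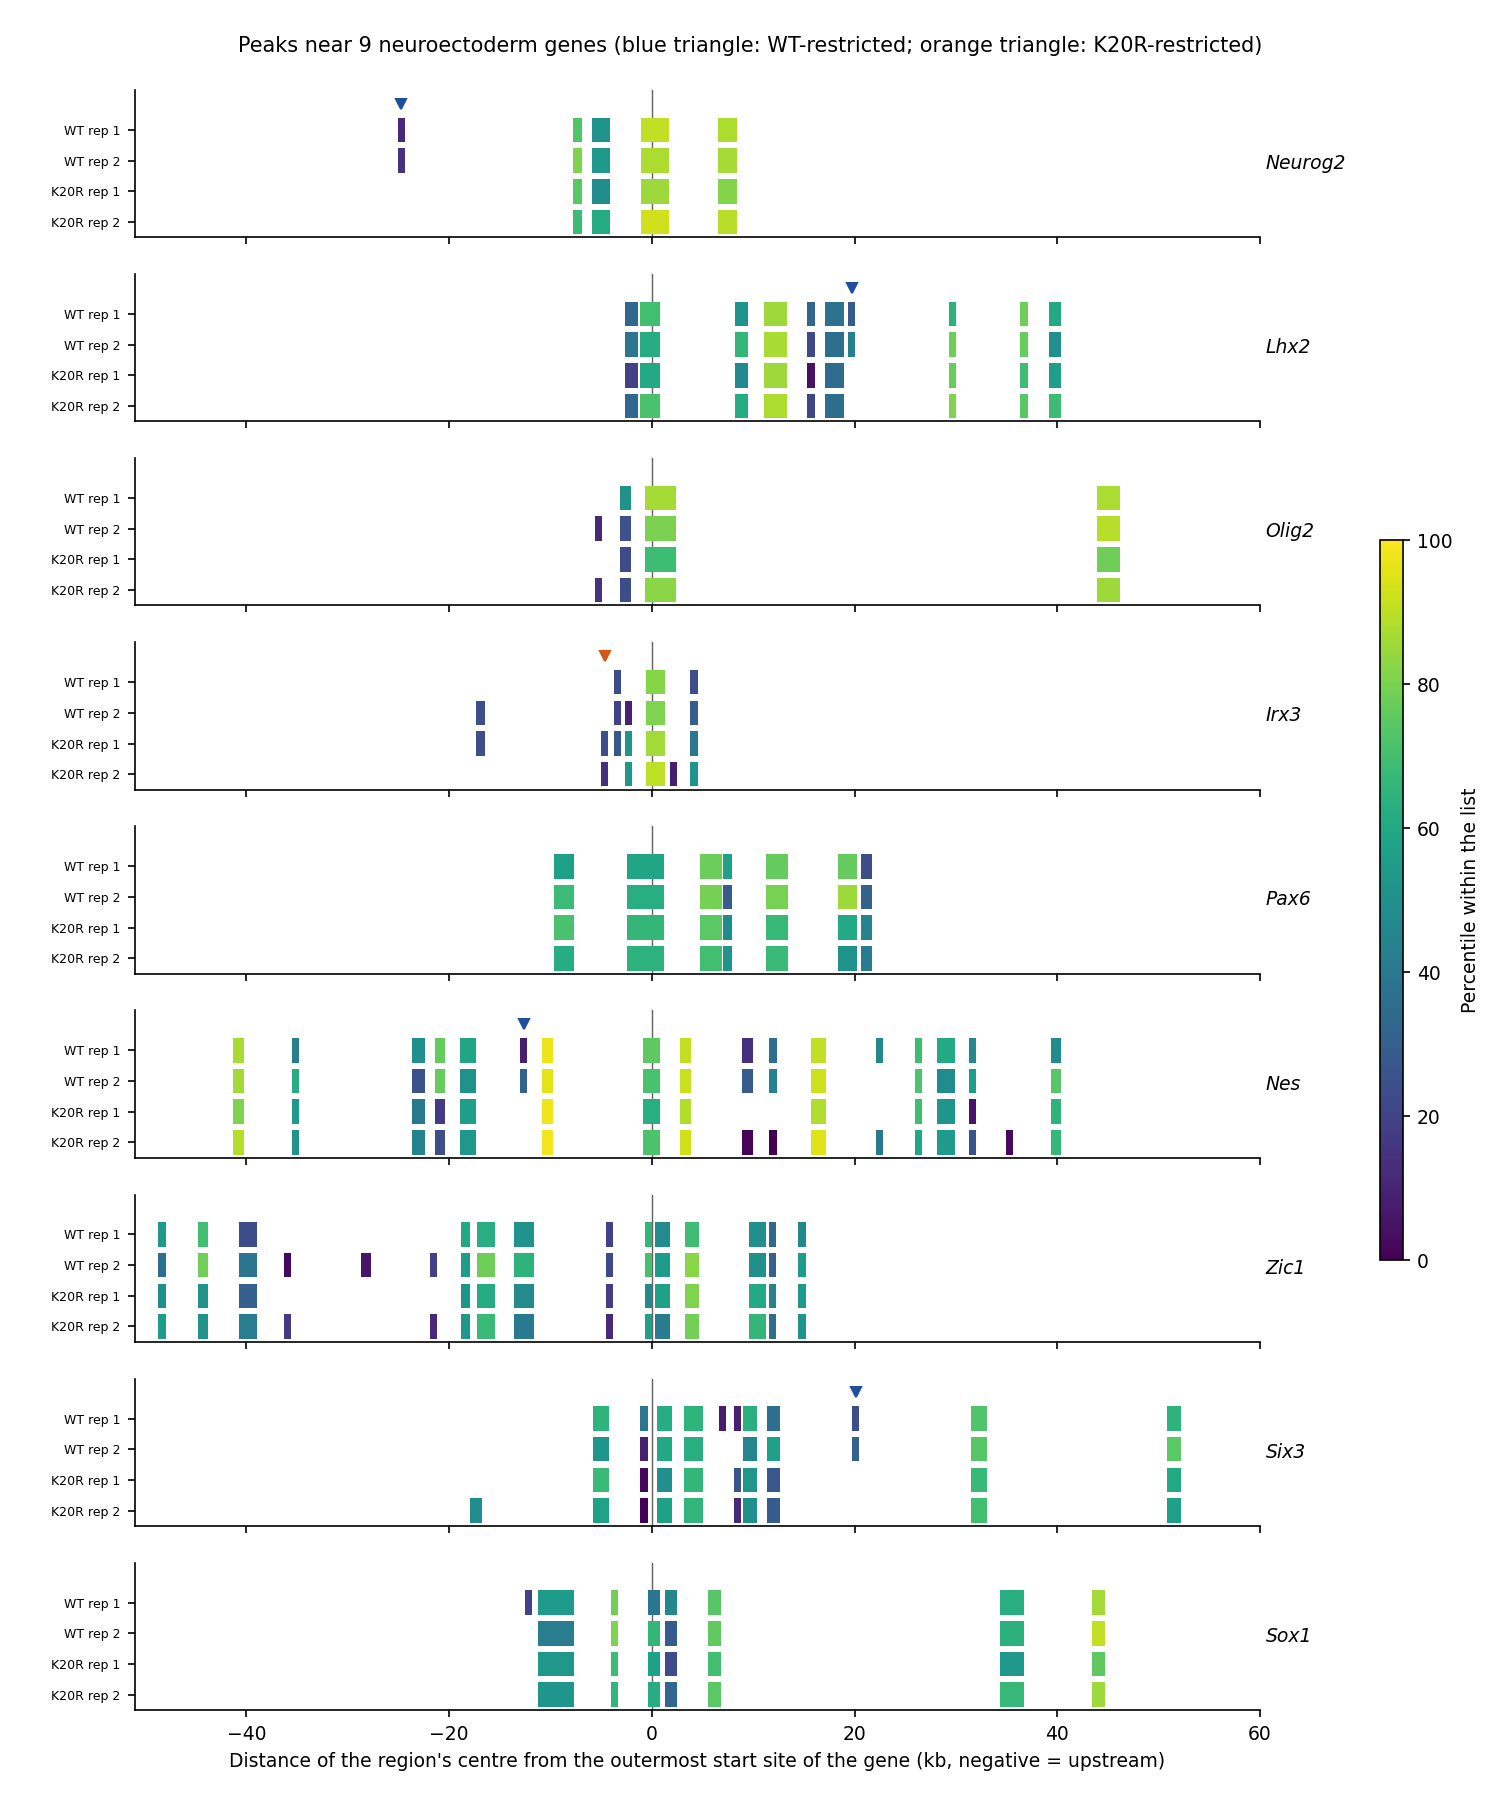
Regions near the 9 genes by the distance of their centre from the outermost TSS of the gene (kb, upstream negative), drawn in each library where a peak was found; colour is the percentile within the list and triangles mark regions found in one genotype alone. Most of the 87 regions were present in all 4 libraries, with 4 WT-restricted regions near Neurog2, Lhx2, Nes and Six3 and 1 K20R-restricted region near Irx3.

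WT-restricted regions, with a peak in both WT lists and in neither K20R list, numbered 4 near the genes (all regions, 10.4%). K20R-restricted regions numbered 1 (all regions, 3.1%). Peak numbers are missing along each list, so that a called peak may have been taken out. Where the peaks on either side of an empty place carry successive numbers, this cannot have happened. In intron 3 of Lhx2, 8.05 kb downstream of the nearest TSS (chr2:38358672-38359300), the WT percentiles were 28.4 and 43.7 with pileups of 31 and 54, and no number was missing in either K20R list. It was the strongest of the 4 in both WT libraries. Upstream of Nes, 12.7 kb from the TSS and nearest to Crabp2 (chr3:87958187-87958715), the WT percentiles were 8.23 and 31.2, with an E-box match at the summit and again no number missing in K20R. In intron 19 of Zgrf1, 24.8 kb upstream of Neurog2 (chr3:127608239-127608616), they were 11.4 and 14.1, from pileups of only 10 and 12. Downstream of Six3 by 12.8 kb (chr17:85633559-85633889) they were 24.0 and 31.0, and 1 number was missing in each K20R list, so a called peak may have been removed there. All 4 were weak peaks in WT, below the middle of their lists.

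The K20R-restricted region lay 4.61 kb upstream of Irx3, in an exon of the antisense transcript Irx3os (chr8:91806507-91806894). Its percentiles were 23.9 and 14.0 in K20R, from pileups of 41 and 52, and 6 and 1 numbers were missing in the WT lists, so that its absence from WT is not certain. In the chromosome 8 stretch around it 5.51% of regions were K20R-restricted. A neighbouring region 2.41 kb upstream of Irx3, also under Irx3os, had no peak in WT replicate 1 (no number missing), 9.26 in WT replicate 2, and 52.5 and 53.0 in K20R. Of the 7 regions near Irx3, 2 were common.

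Over the 66 common regions, 23 (34.8%) ranked lower in K20R without overlap and 8 (12.1%) ranked higher, beside 34.8% and 18.6% of all common regions. When percentiles were taken among common regions alone, 12 were lower and 12 higher (18.2% each), beside 25.5% and 29.2% of all. Without Irx3 the counts in list percentiles were 23 lower and 6 higher of 64. The shares near the genes thus stood near those of the genome or below them. Asking for the same direction in list percentile, in percentile among common regions and in log2 pileup left 9 regions lower, near 6 of the genes, and 7 higher, of which 5 were not near Irx3. Over all common regions 20.5% were lower and 17.7% higher on all 3 scales.

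**Figure D3:**
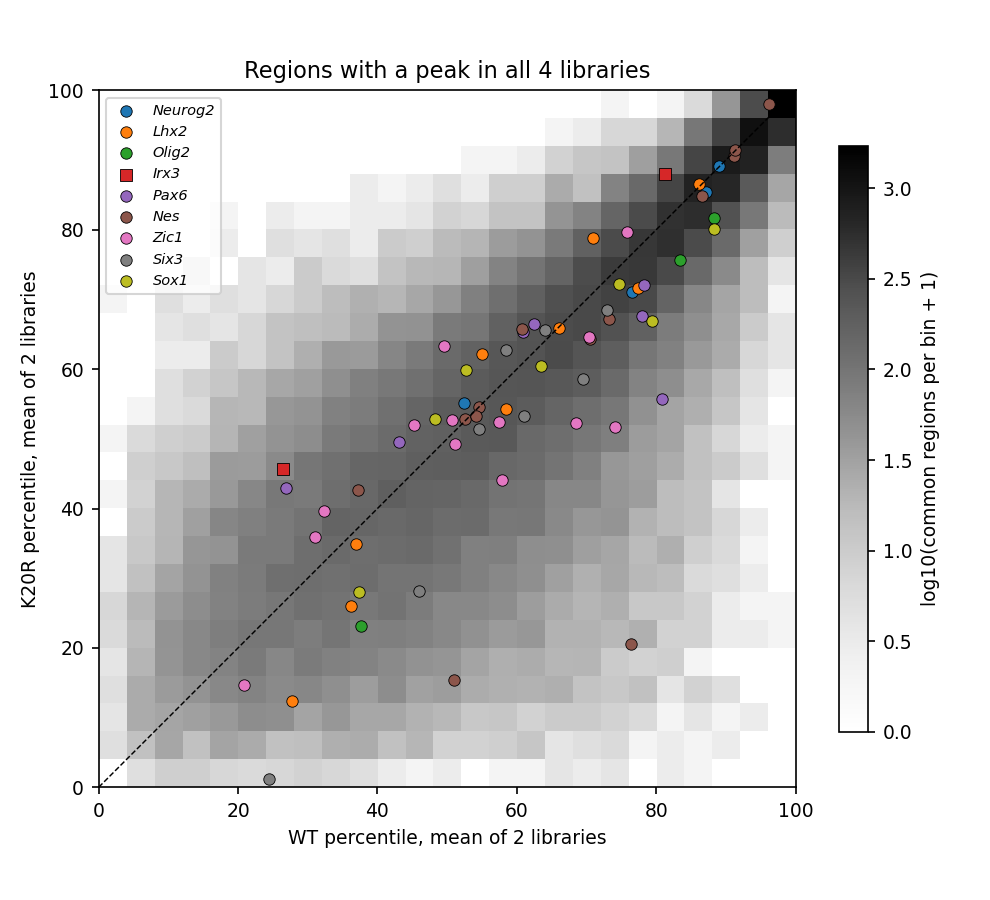
Mean percentile in WT (x axis) and K20R (y axis) of the 66 common regions near the 9 genes, each point a region coloured by gene, over the density of all 38527 common regions (grey, log10 scale); the dashed line marks equal rank. Of the 66 points, 23 were lower and 8 higher in K20R without overlap, and the point farthest below the line is the region in Crabp2 intron 1 upstream of Nes (difference −55.9).

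The Nes locus held both the strongest region of the set and the largest negative difference. The strongest distal region, 10.1 kb upstream of Nes (chr3:87960203-87961347), had WT values of 97.0 and 95.4 and K20R values of 97.6 and 98.4. The intron 2 region whose sequence is shown above (chr3:87973891-87974936) had WT values of 90.7 and 91.8 and K20R values of 88.4 and 92.9, with folds of 6.77, 7.36, 6.17 and 7.42. A region 16 kb downstream of the TSS (chr3:87986776-87988240), with a match to the CTCF consensus at its summit, lay at 90.3, 92.3, 88.0 and 95.0. The upstream region was higher in K20R without overlap on all 3 scales, by 1.81 percentile points, and the intron 2 and CTCF consensus regions overlapped between genotypes (differences −0.61 and 0.18).

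The largest negative difference was 20.8 kb upstream of Nes, in intron 1 of its neighbour Crabp2, which encodes a retinoic acid binding protein (chr3:87949646-87950643). It went from WT values of 76.5 and 76.4 to K20R values of 17.6 and 23.5 (difference −55.9, exact permutation p = 0.333). Folds were 4.15, 4.44, 2.16 and 2.48, and pileups 89, 129, 31 and 46, a difference of −1.55 in log2 pileup. Both K20R libraries were far below both WT libraries on every scale, while the Crabp2 promoter region overlapped (49.5, 25.0, 40.4 and 44.9). On the other side of Nes, a region 31.5 kb downstream near Bcan, the gene of the matrix proteoglycan brevican (chr3:88002390-88002989), went from 47.2 and 54.8 to 5.11 and 25.6 (difference −35.6). A pair of weak regions 9.69 and 11.9 kb downstream of the Nes TSS had peaks in both WT libraries (13.7 and 28.5, and 35.5 and 44.0), none in K20R replicate 1 and barely one in K20R replicate 2 (0.92 and 0.13). In K20R replicate 1 a peak number was missing at each of these. The nearest coding gene of the 2 most negative regions was Crabp2 or Bcan and not Nes.

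In Pax6 all 7 regions were common, and neighbouring sites of intron 3 differed in opposite directions. The region 4.32 kb downstream of the nearest TSS (chr2:105680164-105682367), the strongest distal one of the gene, went from WT values of 76.6 and 79.4 to K20R values of 67.5 and 67.6 (difference −10.4). The region at 11.7 kb (chr2:105687283-105689131) went from 76.5 and 85.3 to 60.4 and 51.1 (difference −25.2), with folds of 5.41, 6.79, 4.08 and 3.80. The next one, at 14.4 kb (chr2:105689547-105690639), was weaker and went up, from 22.8 and 30.9 to 44.5 and 41.5 (difference 16.1), with folds of 2.46, 2.74, 3.28 and 3.40. These 3 kept their direction without overlap on all 3 scales. All 3 were read from the same 4 libraries, over less than the length of the gene.

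At Sox1, the region 3.5 kb upstream (chr8:12391262-12391996), under the transcript Sox1ot, went from 78.2 and 80.6 to 68.4 and 65.4 (difference −12.5) and was lower on all 3 scales. The strongest distal region, 44 kb downstream (chr8:12438768-12440039), had folds of 11.6, 15.5, 8.0 and 13.6 and held an octamer match (ATGCAAAT), the letters bound by POU factors. It went from 86.1 and 90.5 to 75.4 and 84.9 (difference −8.19), and its pileups overlapped. Around Olig2 there were 4 regions. The region 2.63 kb upstream went from 50.2 and 25.2 to 22.9 and 23.2, with WT replicate 1 alone far above the rest, and the promoter of the neighbouring family member Olig1, 44.2 kb away, from 87.3 and 89.2 to 78.1 and 85.3.

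The Zic1 window reached over its neighbour Zic4, a gene of the same zinc finger family. The largest difference there was 44.1 kb upstream of Zic1 (chr9:91409579-91410548), from 69.7 and 78.4 to 51.9 and 51.6 (difference −22.3). Downstream of the gene some regions differed in the other direction. A region at 9.95 kb (chr9:91354557-91356246) went from 49.4 and 49.7 to 60.2 and 66.4 (difference 13.7), and one at 11.9 kb went from 33.8 and 30.8 to 44.0 and 35.2. The region at 14.7 kb had WT values of 46.8 and 54.5 and K20R values of 53.9 and 51.6, which overlapped. The strongest distal region of Zic1, in intron 2, had WT values of 69.5 and 82.2 and K20R values of 80.8 and 78.6, which overlapped, and was higher in K20R without overlap in log2 pileup (difference 0.28).

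At Six3, 5 of 8 common regions ranked lower and 1 higher in list percentiles, beside 34.8% and 18.6% of all common regions, and 2 were lower and 1 higher among common regions, beside 25.5% and 29.2%. The region at the UTR exon 4.28 kb from the nearest TSS (chr17:85625008-85626282) went from 35.6 and 56.5 to 27.3 and 28.9 (difference −17.9). The strongest distal region, 24.9 kb downstream, held both a SOX and an E-box match and went from 72.4 and 73.5 to 67.2 and 69.7, but it overlapped in pileup. At Lhx2, the region 2.48 kb upstream of the outermost TSS (chr2:38336585-38337884) went from 32.7 and 39.7 to 19.4 and 32.7 and was lower on all 3 scales, with K20R replicate 2 only just below WT replicate 1. The strongest distal region of Lhx2, in coding exon 5, had WT values of 63.9 and 77.9 and K20R values of 76.9 and 80.8, which overlapped, but it was higher in K20R without overlap among common regions (difference 15.5) and in log2 pileup (difference 0.55). Near Neurog2 none of the 4 common regions separated in list percentile, and the strong one 6.93 kb downstream (chr3:127639654-127641570) lay at 87.8, 86.7, 81.5 and 89.3. The largest positive difference near any of the genes was 4.17 kb downstream of the Irx3 TSS (chr8:91797626-91798201), from 23.7 and 29.1 to 39.9 and 51.4 (difference 19.2). Relative to the chromosome 8 stretch this was 13.8 percentile points, exceeded by 11.6% of the stretch, and 0.05 in log2 pileup.

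Motifs were searched as fixed letters on both strands within 100 bp of each strongest summit. The SOX letters AACAAT were found in 4.60% of the 87 regions and 7.37% of all regions, and the octamer ATGCAAAT in 2.30% and 1.83%. The homeodomain letters TAATTA were found in 1.15% and 3.48%, and the E-box CAGATG in 10.3% and 15.2%. The GLI letters GACCACCCA were found in none of the 87 and in 0.20% of all regions. The CTCF consensus was found in 2 of the 87 (2.30%), both near Nes, beside 5.97% of all regions. Both overlapped between genotypes. The second of them, in intron 2 of Isg20l2, had WT values of 42.7 and 62.3 and K20R values of 54.4 and 51.2.

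A wider list of 43 neural genes, which holds none of the 9, gave the promoters of the same lineage. All 43 had a promoter peak in all 4 libraries, and 14 (32.6%) ranked lower and 9 (20.9%) higher in K20R. Ranked among promoters, 13 (30.2%) were lower and 15 (34.9%) higher. In WT 36 of the 43 lay below the median promoter, and in K20R 38. Among promoters without overlap, the most negative differences were at Fabp7, which encodes a fatty acid binding protein of radial glia (74.6 and 76.3 in WT, 52.9 and 49.9 in K20R), at the proneural gene Neurog3 (62.9 and 67.2, then 55.2 and 42.8) and at the forebrain factor Otx2 (75.9 and 68.6, then 58.5 and 56.5). The strongest Otx2 promoter peak lay at another start site in K20R than in WT. Around Otx2, 88.9% of the 9 common regions between 50 kb and 1 Mb were lower, with a median difference of −12.4. The Otx2 promoter differed from them by −2.40. Around Fabp7 and Neurog3 the medians were −0.35 and −0.50.

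Among promoters without overlap, the most positive differences were at Neurod1, a factor of neuronal differentiation (43.7 and 45.8 in WT, 64.2 and 62.6 in K20R), at Tubb3, the neuronal beta-tubulin (67.4 and 68.8, then 77.8 and 85.1), and at Sox3, a relative of Sox1 (58.0 and 54.6, then 62.6 and 66.3). Common regions around them had median differences of −4.34, −1.95 and −4.71. These 3 promoters and those of Fabp7, Neurog3 and Otx2 kept their direction without overlap when ranked among promoters and in log2 pileup. At Neurog3 the pileup scale was near a tie, with uncentred pileups of 42 in WT replicate 1 and 43 in K20R replicate 1. The summit of its strongest promoter peak also lay further downstream in K20R than in WT. Neural promoters were therefore found on both sides. Their shares stood near those of all promoters in list percentiles, and both were above those of all promoters when ranked among promoters.

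**Figure D4:**
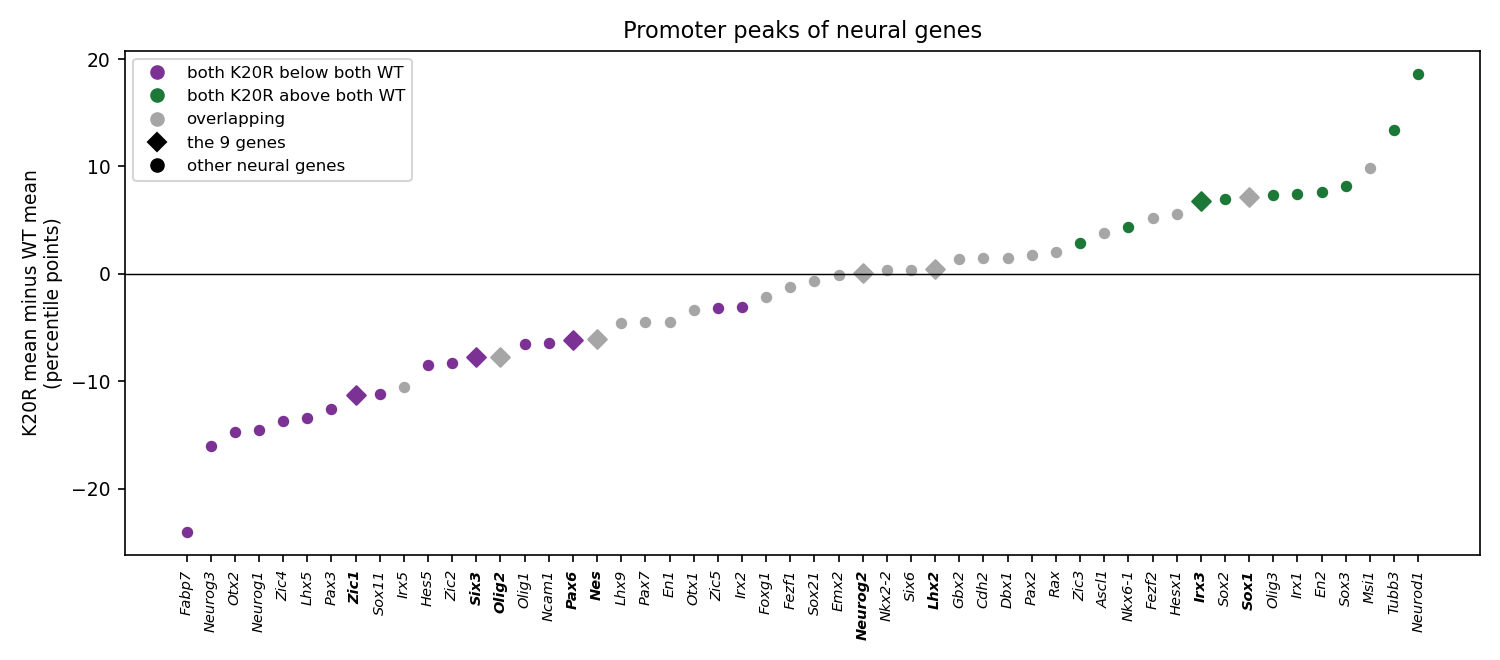
Difference in promoter percentile (K20R mean minus WT mean, list percentiles) of the 9 genes (diamonds, bold names) and 43 other neural genes (circles), sorted; colour shows whether both K20R libraries lay below or above both WT libraries. The points run from −24.1 at Fabp7 to 18.6 at Neurod1, and the 9 genes lie between −11.3 and 7.15.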

How the data were processed

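ATAC-seq peak lists of 4 libraries, 2 WT and 2 CTCF-K20R, from day 4 EBs were used, grouped by the genotype in the labels. According to the study's methods, Trim_Galore removed adaptors and bowtie2 placed the reads on mm10, alignments of mapping quality below 30, duplicates and blacklisted reads were left out, and peaks were called with MACS2 at default settings. Each list is of 1 library, with no pooling. The deposited ratio is the fold of the summit over local background, the deposited −log10 p and −log10 q describe the same summit, and the deposited score is 10 times the −log10 p. All are the authors' values. The smallest −log10 p was 2.00 in both WT lists and 2.02 in both K20R lists. A q above 0.05 was carried by 4.55% and 2.33% of the WT peaks and 5.05% and 2.18% of the K20R peaks. The lists thus hold some peaks that the MACS2 default q cutoff of 0.05 would leave out. The cutoff behind the deposited lists is therefore not certain. Reads were not used, so regions were compared by presence and by rank within a list. The lists keep 51.7%, 50.5%, 58.6% and 60.8% of their peak numbers, and the rule that removed the others is not given in the sources used here.

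Analyses used Python 3.11.15 with pandas 2.3.3, scipy 1.17.1 and pysam 0.24.0, the mm10 sequence and GENCODE vM21 basic TSSs of protein-coding transcripts. The summit pileup was recovered from the fold and the p, since MACS2 adds 1 to pileup and background before dividing them and takes p from a Poisson tail. In the main comparison, counts were read beside the share over all features of the same kind, since features are not replicates. The measures were tested on simulated peaks. Members, gene lists, motifs and named regions were chosen with earlier results of these data known. All 9 genes were named, with every region restricted to a genotype, each gene's strongest distal common region, the most negative and most positive distal regions, and the 3 most negative and positive among separated promoters of the wider list. The other regions described were chosen after their values were seen. Pearson's r of replicate differences between WT and K20R was 0.0532 over 38527 common regions, and no source used here says what a shared number marks, so libraries were not paired. Alternatives covered the promoter definition, thresholds, rank scale, overlap, distance, Irx3, missing numbers, each library and the replicate block. Those for the chromosome 8 stretch and the surroundings of each gene were added after seeing the data.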

Additional observations from a re-analysis of the deposited data

How the results depend on the processing

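The count of promoters with a peak in all libraries, 9, was 8 where the summit itself had to lie within 1000 bp of a TSS (Neurog2 was lost) and 8 at a −log10 q of at least 10 (Sox1 was lost), and 9 under the other alternatives run for it. The count of higher promoters, 1 in list percentiles, was 2 with the outermost TSS alone, among promoter peaks and in log2 pileup, and 0 without Irx3. The Pax6 difference reversed to 4.38 with the outermost TSS. WT-restricted regions, 4, were 1 at a −log10 q of at least 5 or of at least 10 and within 10 kb, and 7 within 100 kb. K20R-restricted regions, 1, were 3 with the same number of strongest peaks per list, 4 with the stricter overlap, 5 within 100 kb, and 0 without Irx3 or where no peak number was missing. Common regions ranked lower, 23, were 12 among common regions and 12 within 10 kb, and those ranked higher, 8, were 14 in log2 pileup. The cause of these shifts was not tested. Shares of all promoters or regions are given above for ranks among promoters and among common regions. No such share stands beside the other alternative counts, so those cannot be told from the background.

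Leaving out 1 library in turn gave 3 to 6 lower promoters (6 without K20R replicate 2, 5 without WT replicate 2), 1 to 3 higher (3 without WT replicate 2 or K20R replicate 1), 6 to 7 WT-restricted regions (7 without WT replicate 2 or K20R replicate 2), 1 to 5 K20R-restricted (5 without K20R replicate 1), 28 to 36 lower common regions (36 without K20R replicate 2) and 12 to 21 higher (21 without K20R replicate 1). A region needs fewer values to separate with 3 libraries, so these counts tend upwards. No share of all promoters or regions stands beside them, so they cannot be told from the background. Taking the replicate number as a block gave 3 lower and 2 higher promoters, beside 41.3% and 21.7% of all promoters, and 26 lower and 12 higher common regions, beside 42.8% and 24.7% of all common regions. Whether the numbers mark shared days or batches is not given in the sources used here. Regions with few reads and 2 libraries a genotype limit what could be seen, since no single p could pass 0.05.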
